A study of Arabidopsis thaliana with 12 samples.

Results

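The genes described here are the autophagy genes of Arabidopsis thaliana: a list of 40 loci that carries the ATG8 paralogues, the enzymes that attach them to membranes, the kinase complexes that start the process and several cargo receptors. A locus was a member when the annotation used here paired a probe set, the group of short probes that reports 1 transcript, with that gene alone. This held for 17 of the 40 loci, out of 13286 genes with such a probe set on the whole array. These 17 members have 18 probe sets, and 16 members passed the filter on dim signals and were tested. AT3G18770 did not pass it, with signals between 2.87 and 15.5 on the 12 arrays. The other 23 loci, among them ATG2, ATG5, ATG7, ATG9, ATG13, NBR1 and the 8 ATG18 genes, had no such pairing and were not analysed here. Probe sets that the annotation pairs with several genes (503) or with none (8794) were not searched for them. All 9 ATG8 paralogues were tested. The remaining 7 tested members were ATG3, ATG101 and 5 loci for which the gene table used here gives no symbol, and which are named by locus tag only.

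Complete plants of 21 days in the vegetative stage were measured on 12 single-colour arrays. The 4 groups of 3 arrays were ARR22-ox with t-zeatin, ARR22-ox untreated, Col-0 with t-zeatin and Col-0 untreated. ARR22-ox plants overexpress ARR22, a type-C response regulator of the cytokinin signalling pathway, and Col-0 is the wild-type accession. The labels name neither the promoter of the overexpression nor the number of lines. The hormone was t-zeatin, a natural cytokinin, at 20 µM for 3 h, and untreated plants had no mock treatment. Whether each array stands for separate plants is not labelled, so the p-values measure only the spread between arrays, which may be technical.

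Autophagy delivers parts of the cytoplasm to the vacuole in vesicles with a double membrane. ATG8, a ubiquitin-like protein, is conjugated to the lipid phosphatidylethanolamine on the growing membrane, with ATG3 as the E2-like enzyme of the last step. The ATG1 and ATG13 kinase complex, of which ATG101 is a subunit, starts the process. TOR kinase holds it back and SnRK1 kinase promotes it, and transcripts of many ATG genes are known to rise in starved and senescing leaves.

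Values are array signals on a linear scale, with the trimmed mean of each array set to 100. Changes are log2 differences ± SE from a limma fit over all 12 arrays, and a member was called changed where its p-value, adjusted by Benjamini-Hochberg across 13648 probe sets, was under 0.05. ARR22 itself had signals between 2752 and 3661 on the ARR22-ox arrays and between 0.397 and 1.92 on the Col-0 arrays. ARR22-ox untreated replicate 3 stood apart: it correlated with the rest of its group at 0.927 on average, against 0.958 to 0.991 for the other 11 arrays. Its ratio of 3' to 5' signal was 1.82 for the GAPDH control, against at most 1.08 elsewhere. On this array 12 of the 16 tested members, including 9 of 9 ATG8 paralogues, had the highest signal of their group, while 45.1% of all tested probe sets did. The median log2 difference of the ATG8 paralogues from the other arrays of the group was 0.47 there, against 0.01 over all tested probe sets. The part of this array in the results below was examined by leaving it out, and the part of RNA quality was not tested.

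In Col-0, more autophagy genes fell than rose after 3 h of t-zeatin. Of the 16 tested members 9 fell, 1 rose and 6 were not called. The falls were 2.29-fold and 2.18-fold for ATG8E and ATG8F, and smaller for ATG8H, ATG8I, ATG8C, ATG101, ATG3, AT2G37840 and AT3G61960. Over all tested probe sets 21.1% fell and 23.7% rose, and 44.8% were called in either direction. The median log2 change was -0.34 over the members and 0.01 over all tested probe sets. In 12 of the 16 members all Col-0 arrays with t-zeatin lay below all untreated ones, which held for 31.2% of all tested probe sets. In complete plants, less RNA per cell and fewer cells that carry a transcript cannot be told apart.

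ATG8F, of the clade of ATG8 proteins that also holds ATG8E and ATG8G, had signals of 529.6, 511 and 479 on the Col-0 arrays with t-zeatin, against 1088, 1110.5 and 1109 on the untreated ones. These groups lay far apart, with little spread inside either. The log2 change was -1.12 ± 0.10 (adjusted p = 2.74e-06). ATG8E had 223, 223 and 189.9 with t-zeatin and 476, 490.4 and 485 untreated, a log2 change of -1.19 ± 0.17 (adjusted p = 1.31e-04). The third member of the clade behaved otherwise: the Col-0 ranges of ATG8G overlapped. Its signals were 67.5, 63.4 and 52.5 with t-zeatin and 60.4, 72.2 and 67.2 untreated, and the log2 change of -0.13 ± 0.21 was not called (adjusted p = 0.647).

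Transcripts of both members of the clade of short ATG8 proteins were lower with t-zeatin in Col-0. These proteins end in an exposed glycine and so need no trimming by the ATG4 protease. ATG8H had 74.2, 70.7 and 61.5 in Col-0 with t-zeatin and 120.2, 124 and 115 untreated (log2 change -0.80 ± 0.09, adjusted p = 1.88e-05). ATG8I had 364, 378 and 358 with t-zeatin and 579.7, 548 and 566 untreated (log2 change -0.62 ± 0.11, adjusted p = 5.57e-04). No array with t-zeatin reached the untreated range for either gene.

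The remaining ATG8 clade, ATG8A to ATG8D, was mixed. ATG8C fell by 0.33 ± 0.08 on the log2 scale (adjusted p = 0.00584), with 199, 191 and 179 with t-zeatin and 232, 232 and 253 untreated. ATG8B rose by 0.41 ± 0.15 (adjusted p = 0.0386), with 91.1, 81.6 and 82.3 with t-zeatin and 65.5, 65.7 and 60 untreated. ATG8B was thus the 1 member that rose in Col-0. Its groups did not overlap, but the call held in 8 of 19 other settings, which vary the processing or leave out 1 array, and was lost when any 1 Col-0 array, or ARR22-ox t-zeatin replicate 3, was left out (adjusted p at most 0.12). ATG8A had 219, 175 and 172 with t-zeatin against 226, 242 and 251 untreated, all lower but with a spread that left the change of -0.35 ± 0.18 uncalled (adjusted p = 0.135). ATG8D had 127, 127 and 121 with t-zeatin and 112, 126 and 127 untreated, with ranges that overlapped and a log2 change of 0.04 ± 0.11 (adjusted p = 0.792). Without ARR22-ox untreated replicate 3, which feeds the shared estimate of spread, 12 members fell and 1 rose in Col-0, and 29.0% and 30.9% of all tested probe sets did so. ATG8A was then among those that fell (adjusted p = 0.00173), with AT3G59950 (0.0234) and AT5G50230 (0.0394).

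**Figure D1:**
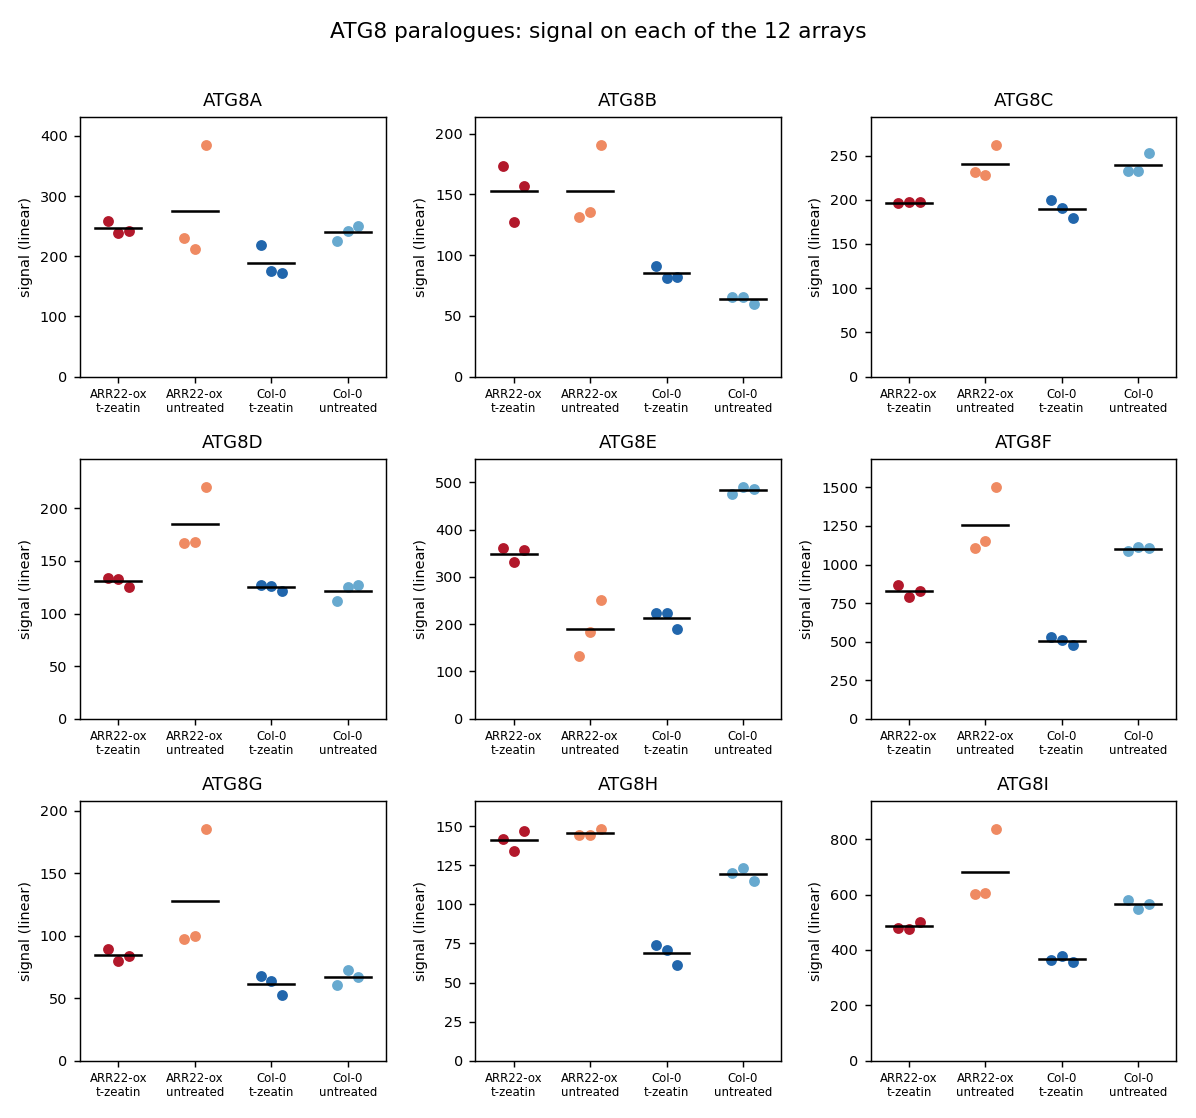
Signal (linear scale, trimmed mean of each array 100) of the 9 ATG8 paralogues on each of the 12 arrays. Points are arrays, from left to right replicates 1 to 3 of each group, and bars are group means. ATG8E and ATG8F sit apart between the 2 Col-0 groups, and the third ARR22-ox untreated array is the highest of its group for all 9 paralogues.

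ATG3, the enzyme that hands ATG8 to its lipid, had 168, 169 and 155 in Col-0 with t-zeatin and 183, 195 and 196 untreated. The fall of 0.22 ± 0.08 on the log2 scale was small (adjusted p = 0.0433), and its call was lost when any 1 array outside the ARR22-ox untreated group was left out (adjusted p at most 0.148). ATG101, in the complex that starts autophagy, had 86.0, 78.6 and 89.5 with t-zeatin and 120.3, 122 and 122 untreated (log2 change -0.52 ± 0.12, adjusted p = 0.0030). Its untreated arrays were nearly identical and all above the treated ones.

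The loci without a symbol gave 2 further falls in Col-0. AT3G61960 had 86.9, 89.0 and 91.8 with t-zeatin and 118, 108 and 105 untreated (log2 change -0.30 ± 0.09, adjusted p = 0.0148). That call did not survive leaving out replicate 1 of either Col-0 group, with an adjusted p of at most 0.0645. AT2G37840 had 38.5, 40.1 and 32.7 with t-zeatin and 52.5, 49.9 and 62.4 untreated on the brighter of its probe sets (log2 change -0.57 ± 0.15, adjusted p = 0.00847). Its dimmer probe set also had lower signals, at 29.2, 32.3 and 22.2 with t-zeatin and 34.1, 44.1 and 34.5 untreated, but was not called (log2 change -0.44 ± 0.25, adjusted p = 0.175). The other loci were not called. AT3G59950 had 67.9, 60.9 and 67.3 with t-zeatin and 75.8, 71.4 and 110.4 untreated (adjusted p = 0.0579), AT5G50230 had 96.9, 110.0 and 103 against 123, 117 and 122 (adjusted p = 0.155), and AT3G53930 had 29.7, 24.0 and 32.0 against 35.8, 30.4 and 27.1 (adjusted p = 0.614). The first 2 of these were lower on every treated array, and the third overlapped. AT3G59950 was called when Col-0 untreated replicate 2 was left out.

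In ARR22-ox plants the autophagy genes responded to t-zeatin in both directions. Of the 16 tested members 7 fell, 2 rose and 7 were not called. ATG8E and AT3G53930 rose 1.91-fold and 1.81-fold, while ATG8F, ATG8G, ATG3, ATG8D, ATG8I, AT3G61960 and ATG8C fell by between 1.22-fold and 1.51-fold. Over all tested probe sets 25.1% fell and 25.2% rose, and 50.3% were called in either direction. The median log2 change was -0.29 over the members and 0.00 over all tested probe sets. All arrays with t-zeatin lay below all untreated arrays in 8 members and above them in 2, against 27.0% and 28.0% of all tested probe sets.

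ATG8E had 360.2, 332 and 356 on the ARR22-ox arrays with t-zeatin and 132, 183 and 251 on the untreated ones. All treated arrays were above all untreated ones, and the untreated arrays differed widely among themselves. The log2 change was 0.94 ± 0.17 (adjusted p = 7.07e-04), and 1.17 without replicate 3 of the untreated group. ATG8F, in the same clade, had 868, 787 and 827 with t-zeatin and 1110.3, 1156 and 1503 untreated (log2 change -0.59 ± 0.10, adjusted p = 3.98e-04). ATG8G had 89.6, 79.7 and 83.4 with t-zeatin and 97.7, 99.6 and 185 untreated, a fall of 0.53 ± 0.21 (adjusted p = 0.0477). Untreated replicate 3 was far above the rest, and without it the log2 change of ATG8G was -0.23 (adjusted p = 0.107). The call was also lost without any 1 array of the other 3 groups, and held in 6 of 19 other settings.

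Of the transcripts of the short ATG8 proteins, 1 fell in ARR22-ox and the other was not called. ATG8I had 478, 474 and 501 in ARR22-ox with t-zeatin and 603, 607 and 837 untreated (log2 change -0.48 ± 0.11, adjusted p = 0.00305). ATG8H had 142, 134 and 147 with t-zeatin and 145, 144 and 148 untreated, ranges that overlapped, with a log2 change of -0.05 ± 0.09 (adjusted p = 0.683). In the clade of ATG8A to ATG8D both called changes were falls. ATG8D fell by 0.49 ± 0.11 (adjusted p = 0.00285), with 134, 133 and 126 with t-zeatin and 167, 168 and 220.4 untreated. ATG8C had 196, 197 and 197 with t-zeatin and 231, 228 and 262 untreated, a fall of 0.29 ± 0.08 (adjusted p = 0.0122, and 0.0563 with only the arrays compared). Neither of the other 2 was called, and both overlapped. ATG8A had 259, 239 and 242 with t-zeatin and 229.7, 212 and 385 untreated, and ATG8B had 174, 128 and 157 with t-zeatin and 131, 135 and 191 untreated.

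ATG3 fell by 0.51 ± 0.08 (adjusted p = 2.52e-04) in ARR22-ox, with 171, 171 and 169 with t-zeatin and 251, 258 and 223 untreated. ATG101 had 130.1, 101 and 101 with t-zeatin and 95.6, 116 and 101 untreated, without a call. AT3G53930 had 56.4, 58.0 and 64.3 with t-zeatin against 37.9, 37.4 and 25.2 untreated (log2 change 0.85 ± 0.18, adjusted p = 0.00191), so its treated arrays were clearly above the untreated ones. AT3G61960 had 105, 105 and 106 with t-zeatin and 134, 121 and 143 untreated (log2 change -0.33 ± 0.09, adjusted p = 0.0077).

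The other 3 loci were not called in the ARR22-ox response. AT3G59950 had 77.6, 75.9 and 79.5 with t-zeatin and 97.8, 86.2 and 102 untreated, and AT5G50230 had 119, 138 and 113 against 90.6, 102 and 124. AT2G37840 had 50.4, 41.8 and 41.3 with t-zeatin and 62.0, 46.1 and 59.1 untreated on its brighter probe set. Its probe sets disagreed here: the dimmer one had 35.0, 38.9 and 46.5 with t-zeatin and 21.6, 32.9 and 15.5 untreated and was called higher (log2 change 0.84 ± 0.25, adjusted p = 0.0137). The response of this locus in ARR22-ox therefore depends on the probe set. Its brighter probe set was called lower without ARR22-ox untreated replicate 2, and AT3G59950 without Col-0 untreated replicate 3 (adjusted p = 0.0283 for AT2G37840 and 0.0275 for AT3G59950). When replicate 3 of the untreated group was left out, 6 members fell and 3 rose in this genotype, ATG8G having lost its call and AT5G50230 having gained one (log2 change 0.35, adjusted p = 0.0055). Of all tested probe sets 30.7% fell and 30.4% rose in that fit.

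**Figure D2:**
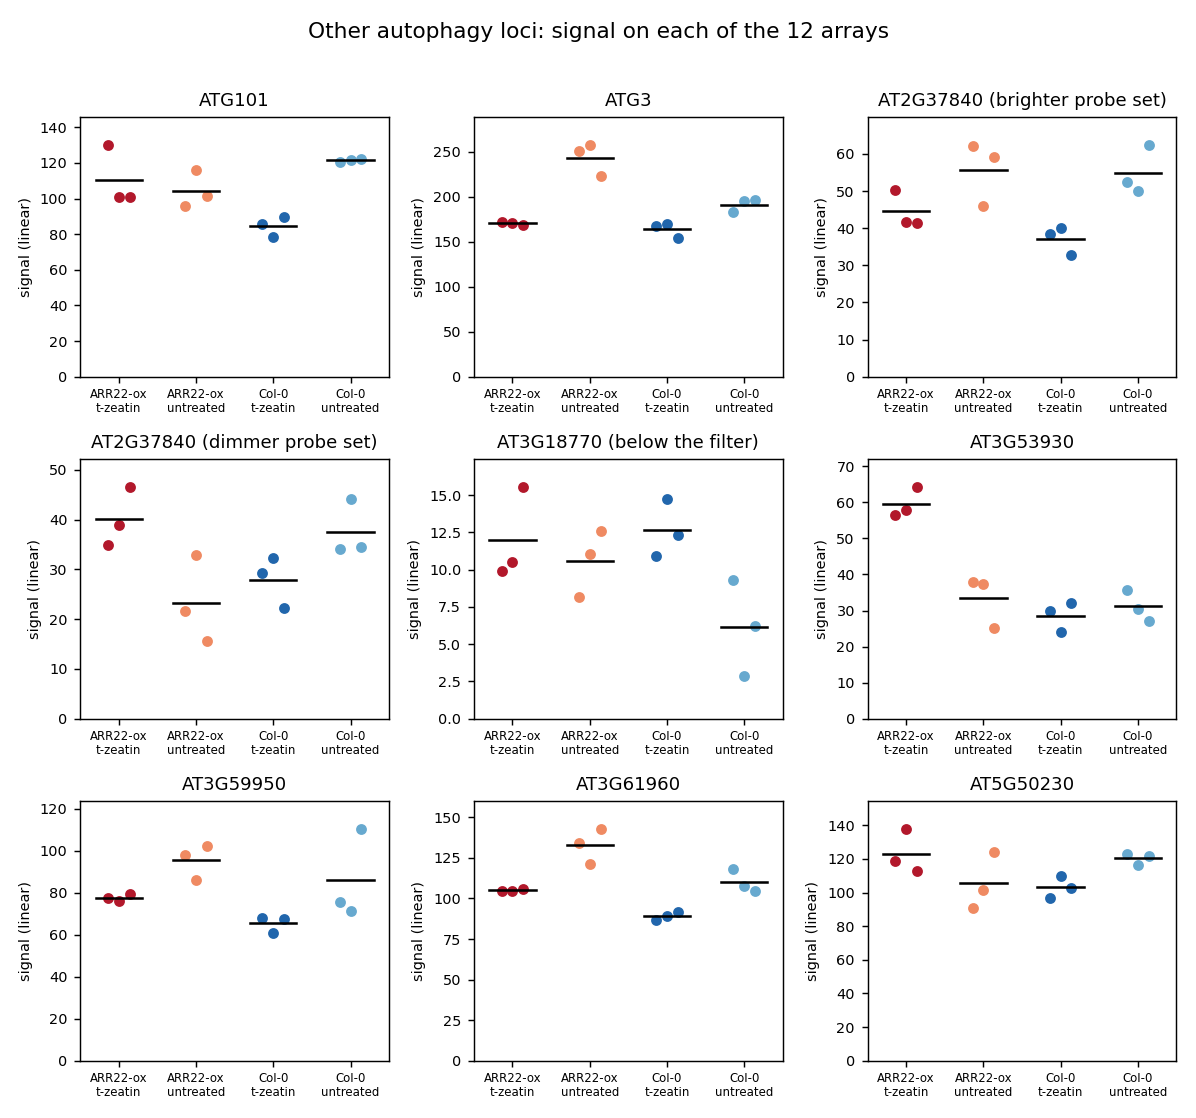
Signal (linear scale) of the members outside the ATG8 family on each of the 12 arrays, with points for arrays and bars for group means. AT3G53930 is high on the 3 ARR22-ox arrays with t-zeatin, ATG3 on the 3 ARR22-ox untreated arrays, and ATG101 is low in Col-0 with t-zeatin.

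The responses of the genotypes were set side by side through the calls and then compared by the test of their difference. Of the 7 members that fell in ARR22-ox, 5 had also fallen in Col-0, where 9 fell: ATG8C, ATG8F, ATG8I, ATG3 and AT3G61960. Of all tested probe sets 7.17% fell in both, which is 28.6% of those that fell in ARR22-ox and 33.9% of those that fell in Col-0. ATG8E was the 1 member with calls in opposite directions, as were 11.3% of all tested probe sets.

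The difference of the responses, ARR22-ox minus Col-0, was called in 7 of the 16 members, 6 of them higher and 1 lower. A higher difference means that the response in ARR22-ox was less negative or more positive than in Col-0. Over all tested probe sets 45.6% were called, 21.1% higher and 24.5% lower. The median difference was 0.20 over the members and -0.05 over all tested probe sets. It moved with the untreated ARR22-ox arrays: without replicate 1, 2 or 3 of them the median over the members was 0.12, 0.08 or 0.30, in that order, and it was 0.11 with a stricter filter on dim signals. ATG8E had the largest difference of the 7, at 2.13 ± 0.24 on the log2 scale (adjusted p = 1.95e-05), with its signal lower with t-zeatin in Col-0 and higher in ARR22-ox. ATG8H differed by 0.75 ± 0.13 (adjusted p = 4.40e-04) and ATG101 by 0.60 ± 0.16 (adjusted p = 0.00984), genes that fell in Col-0 and were not called in ARR22-ox. For ATG8F, which fell in both, the difference was 0.53 ± 0.14 (adjusted p = 0.0084), so the fall was smaller in ARR22-ox.

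AT3G53930 differed by 0.98 ± 0.26 (adjusted p = 0.00787) and AT5G50230 by 0.45 ± 0.17 (adjusted p = 0.0465). The call of AT5G50230 held in 6 of 19 other settings, with an adjusted p between 0.00136 and 0.118, and of the 12 arrays only replicate 3 of either ARR22-ox group could be left out without losing it. ATG8D was the 1 member whose difference was negative and called, at -0.53 ± 0.16 (adjusted p = 0.0147): it fell in ARR22-ox and was not called in Col-0. For ATG3, the log2 changes of -0.51 in ARR22-ox and -0.22 in Col-0 differed by -0.29 ± 0.12, which missed the threshold (adjusted p = 0.0584). ATG8G, which was called in ARR22-ox and not in Col-0, showed no called difference between them (-0.40 ± 0.29, adjusted p = 0.28). The same held for ATG8B (-0.40 ± 0.21, adjusted p = 0.137) and AT2G37840 (0.25 ± 0.21, adjusted p = 0.366), called in Col-0 and not in ARR22-ox. On the dimmer probe set of AT2G37840 the difference was 1.28 ± 0.35 (adjusted p = 0.0102). Without ARR22-ox untreated replicate 3 the difference was called higher in 8 members and lower in 2, against 27.4% and 32.1% of all tested probe sets. ATG8A (0.51, adjusted p = 0.00228) and ATG8I (0.30, adjusted p = 0.00228) were then called higher and ATG3 (-0.35, adjusted p = 0.00376) lower.

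**Figure D3:**
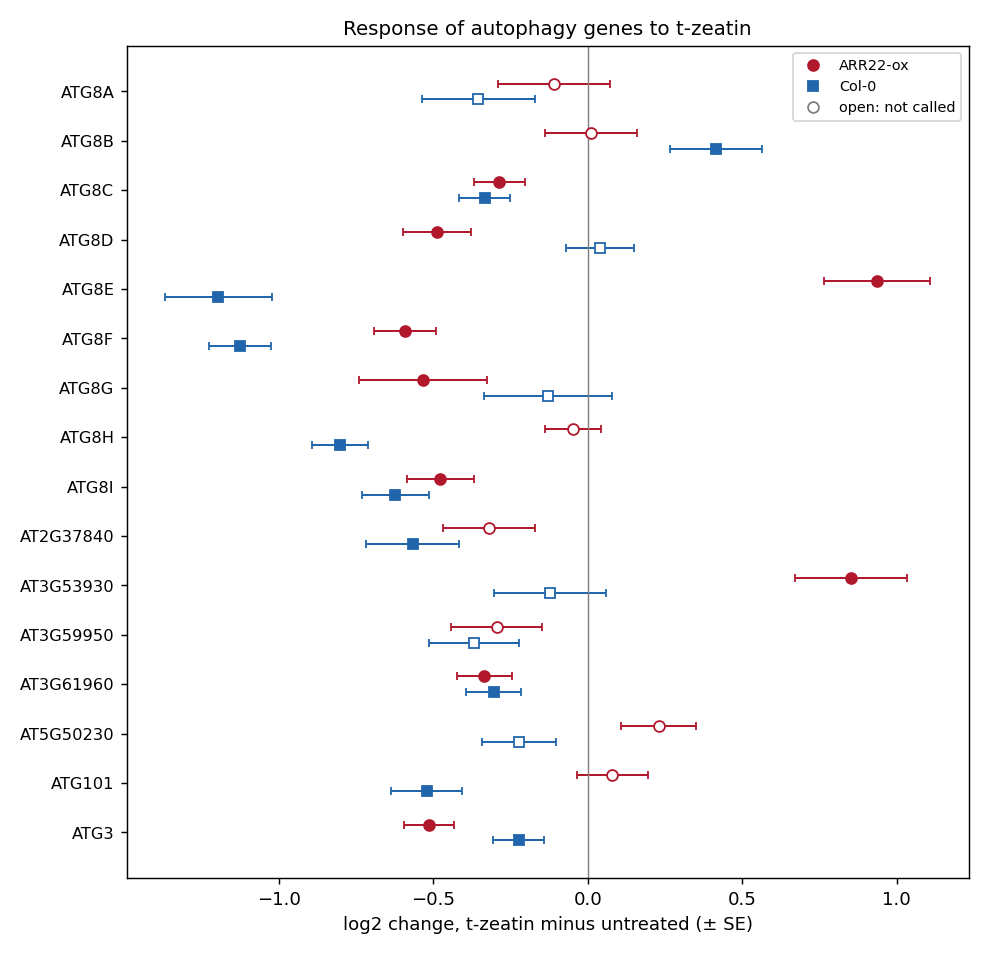
Log2 change with t-zeatin ± SE of the 16 tested members in ARR22-ox and in Col-0, from the limma fit over all 12 arrays; filled points are called at an adjusted p under 0.05. ATG8E lies at 0.94 in ARR22-ox and -1.19 in Col-0, on opposite sides of 0, while ATG8F, ATG8I, ATG8C, ATG3 and AT3G61960 lie below 0 and are called in both.

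The same arrays were then compared between genotypes, so these values share their groups with the responses above. Without hormone, 6 of the 16 members were higher and 1 was lower in ARR22-ox than in Col-0. Over all tested probe sets 24.5% were higher and 24.0% lower, 48.5% in all. The median log2 difference was 0.18 over the members and 0.01 over all tested probe sets, and the first was 0.27 without ARR22-ox untreated replicate 2 and 0.11 without replicate 3 of that group. ATG8E was 2.65-fold lower in untreated ARR22-ox, with a mean signal of 189 ± 59.6 against 484 ± 7.27 in Col-0 (SD, n = 3 arrays; log2 difference -1.41 ± 0.17, adjusted p = 3.06e-05). ATG8B was 2.36-fold higher, at 153 ± 33.2 in ARR22-ox against 63.8 ± 3.25 in Col-0 (log2 difference 1.24 ± 0.15, adjusted p = 2.63e-05). The lowest untreated ARR22-ox array had 131 for ATG8B, and the highest untreated Col-0 array had 65.7.

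ATG8G had 128 ± 50.0 in untreated ARR22-ox and 66.6 ± 5.96 in Col-0 (log2 difference 0.87 ± 0.21, adjusted p = 0.00385), and the difference fell to 0.57 without ARR22-ox untreated replicate 3 (adjusted p = 5.56e-04). ATG8D was also higher in ARR22-ox, by 0.59 ± 0.11 (adjusted p = 7.50e-04), and ATG3 by 0.35 ± 0.08 (adjusted p = 0.00392). Smaller rises were called for ATG8H, at 0.29 ± 0.09 (adjusted p = 0.0205), and AT3G61960, at 0.27 ± 0.09 (adjusted p = 0.0261). The call of ATG8H was lost without Col-0 untreated replicate 3, and that of AT3G61960 without Col-0 untreated replicate 2 or 3 or ARR22-ox untreated replicate 1, with an adjusted p of at most 0.0655 for ATG8H and 0.12 for AT3G61960 over all settings. The dimmer probe set of AT2G37840 was lower in ARR22-ox (log2 difference -0.75 ± 0.25, adjusted p = 0.0259), while its brighter one showed a log2 difference of 0.02 ± 0.15. ATG8C, ATG8F, ATG8A and AT3G53930 had overlapping ranges and log2 differences between 0.01 and 0.18. ATG8I (0.26 ± 0.11, adjusted p = 0.07), ATG101 (-0.22 ± 0.12, adjusted p = 0.13), AT5G50230 (-0.20 ± 0.12, adjusted p = 0.185) and AT3G59950 (0.18 ± 0.15, adjusted p = 0.34) were not called either. ATG8I was called without ARR22-ox untreated replicate 1 or 2 (adjusted p at least 0.0311), and AT3G59950 without Col-0 untreated replicate 3 (adjusted p = 0.018). Without ARR22-ox untreated replicate 3, the array that stood apart, the log2 difference of ATG8I was 0.099 and was not called (adjusted p = 0.133). All ARR22-ox arrays lay above all Col-0 arrays in 7 members and below them in 2, against 25.9% and 25.7% of all tested probe sets. Leaving out ARR22-ox untreated replicate 3 gave counts of 6 higher and 2 lower (31.2% and 30.3% of all tested probe sets), with AT5G50230 as the added lower one (-0.33, adjusted p = 0.00904).

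With t-zeatin, 8 of the 16 members were higher in ARR22-ox and 0 were lower, relative to Col-0, in the limma test. At an unadjusted p under 0.05 the counts were 9 and 0. Over all tested probe sets 23.1% were higher and 28.0% lower, 51.0% in all. The median log2 difference was 0.39 over the members and -0.05 over all tested probe sets. In 13 members all ARR22-ox arrays were above all Col-0 arrays, and in 0 were they all below, against 31.6% and 37.8% of all tested probe sets. These counts come from arrays that also enter both responses.

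Of the 8 members that were higher, 5 were ATG8 paralogues, which make up 9 of the 16 tested members. ATG8H averaged 141 ± 6.23 in ARR22-ox with t-zeatin and 68.8 ± 6.58 in Col-0 with t-zeatin, a 2.05-fold difference (log2 1.04 ± 0.09, adjusted p = 1.51e-06). ATG8F averaged 828 ± 40.4 in ARR22-ox and 506 ± 25.8 in Col-0 (log2 0.71 ± 0.10, adjusted p = 8.21e-05), and ATG8I 485 ± 14.3 in ARR22-ox and 367 ± 10.6 in Col-0 (log2 0.40 ± 0.11, adjusted p = 0.00806). ATG8E, lower in ARR22-ox without hormone, was higher in it with t-zeatin: 349.5 ± 15.0 in ARR22-ox against 212 ± 19.1 in Col-0 (log2 0.72 ± 0.17, adjusted p = 0.00367). ATG8B was higher in ARR22-ox here too, by 0.83 ± 0.15 (adjusted p = 5.01e-04).

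Outside the ATG8 family, AT3G53930 averaged 59.5 ± 4.18 in ARR22-ox and 28.6 ± 4.1 in Col-0 with t-zeatin (2.09-fold, log2 1.07 ± 0.18, adjusted p = 3.49e-04). ATG101 differed by 0.38 ± 0.12 (adjusted p = 0.0163), a call lost when either replicate 2 of Col-0 with t-zeatin or replicate 1 of ARR22-ox with t-zeatin was left out. AT3G61960 differed by 0.23 ± 0.09 (adjusted p = 0.043), a call that held in 10 of 19 other settings and was lost without any 1 of the 6 arrays with t-zeatin, Col-0 untreated replicate 2 or ARR22-ox untreated replicate 1 (adjusted p at most 0.116). ATG3, higher in ARR22-ox without hormone, had nearly equal means with it, 170.3 ± 1.4 in ARR22-ox and 164 ± 8.06 in Col-0 (log2 0.06 ± 0.08, adjusted p = 0.599). The uncalled log2 differences of ATG8A, ATG8C, ATG8D, ATG8G, AT2G37840, AT3G59950 and AT5G50230 lay between 0.05 and 0.47. Without ARR22-ox untreated replicate 3, 11 members were higher in ARR22-ox with t-zeatin, against 29.3% of all tested probe sets, the added ones being ATG8A, ATG8G and AT5G50230.

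**Figure D4:**
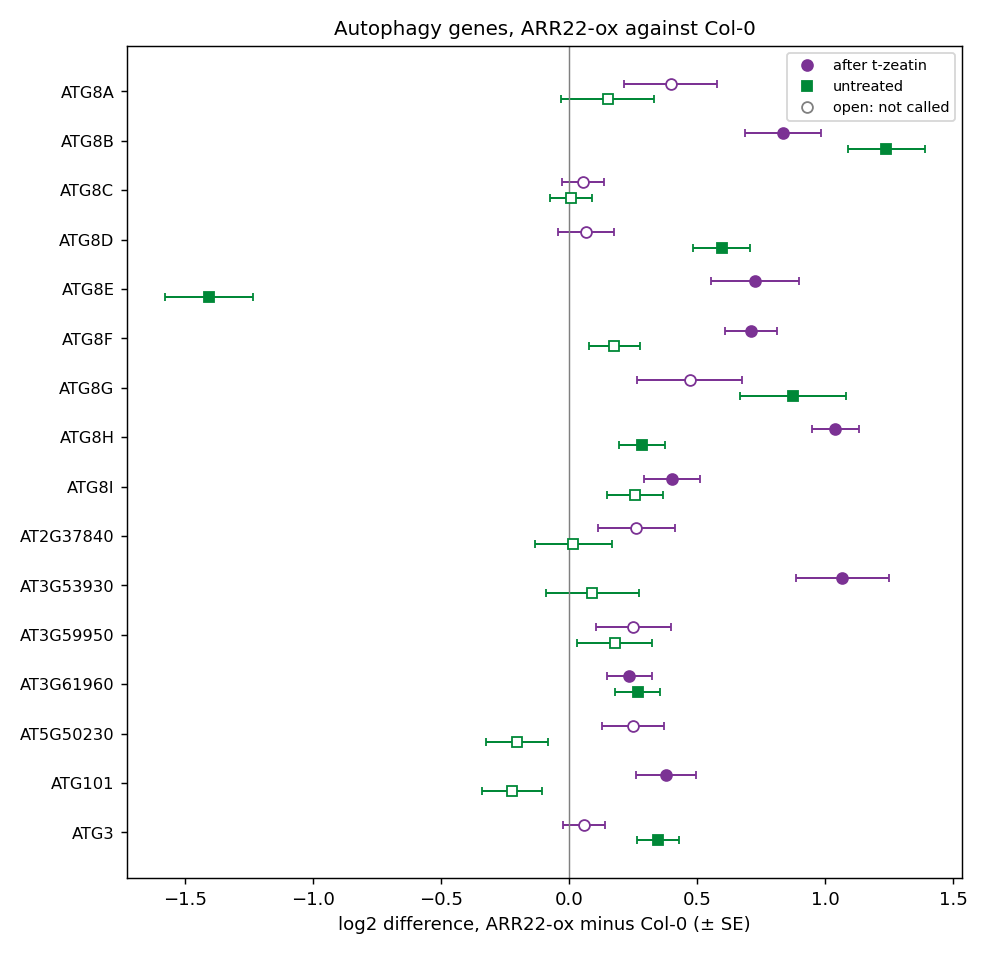
Log2 difference ± SE, ARR22-ox against Col-0, of the 16 tested members with t-zeatin and untreated; filled points are called at an adjusted p under 0.05. ATG8E lies at 0.72 with t-zeatin and at -1.41 untreated, and all 16 members lie above 0 with t-zeatin.

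Organ markers were read on the same arrays. The summed signal of the root markers, of which 2 of 10 had a probe set, lay between 72.5 and 92.3 in ARR22-ox with t-zeatin and between 78.9 and 95.7 untreated. In Col-0 it lay between 61.6 and 71.6 with t-zeatin and between 83.3 and 97.7 untreated, so it too was lower in treated Col-0. EXPA7, an expansin of root hairs, fell by 0.71 ± 0.19 there (adjusted p = 0.0101), to a dim mean signal of 24.5. The other root marker, EXPA18, was not called there (log2 change -0.24 ± 0.12, adjusted p = 0.125). The green tissue marker LHCB4.1, a light-harvesting protein and the 1 of 8 with a probe set, had 2235 ± 117 in ARR22-ox with t-zeatin and 2580.4 ± 255 untreated. In Col-0 it had 2698 ± 52.8 with t-zeatin and 3545 ± 40.4 untreated. LHCB4.1 was thus called lower with t-zeatin in Col-0 (log2 change -0.39 ± 0.07, adjusted p = 6.39e-04). It was also called lower in ARR22-ox, with ranges that overlapped (-0.20 ± 0.07, adjusted p = 0.0284). Between genotypes it was called lower in ARR22-ox, with log2 differences of -0.46 untreated and -0.27 with t-zeatin. For the flower markers, 0 of 6 had a probe set that the annotation pairs with that gene alone, the rule used for the other markers too. The part of organ composition in the autophagy values was not tested.

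Genes that act before and after the ATG proteins were described from wider lists. Of 12 listed subunits of the TOR and SnRK1 kinases 4 were tested, and in Col-0 3 rose and 1 fell, while in ARR22-ox 2 rose. Of all tested probe sets 23.7% rose and 21.1% fell in Col-0, and 25.2% rose in ARR22-ox. KINbeta1, a regulatory subunit of SnRK1, averaged 242 ± 13.4 in Col-0 with t-zeatin and 523 ± 29.1 untreated (log2 change -1.11 ± 0.22, adjusted p = 0.00157). In ARR22-ox it averaged 170.5 ± 2.87 with t-zeatin and 92.1 ± 44.2 untreated (log2 change 0.99 ± 0.22, adjusted p = 0.00295). Like ATG8E and 11.3% of all tested probe sets, it thus had calls in opposite directions, and its responses differed by 2.1 ± 0.32 (adjusted p = 1.83e-04). RAPTOR1B, a subunit of the TOR complex, rose by 1.29 ± 0.14 in ARR22-ox (adjusted p = 1.04e-05) and by 0.53 ± 0.14 in Col-0 (adjusted p = 0.00747). KINbeta2 and KINbeta3, further SnRK1 subunits, rose by 0.34 ± 0.12 and 0.46 ± 0.13 in Col-0. Without hormone 2 of the 4 were lower in ARR22-ox, with a log2 difference of -2.61 ± 0.22 for KINbeta1, and with it 1 was higher. The shares of all tested probe sets were 24.0% lower without hormone and 23.1% higher with it. With ARR22-ox untreated replicate 3 left out, 3 of the 4 rose in ARR22-ox, 1 was lower there without hormone, and with hormone 1 was higher and 1 lower. In that fit the shares of all tested probe sets were 30.4%, 30.3%, 29.3% and 35.3%, in that order.

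Of 15 listed trafficking and cargo factors 5 were tested, all by locus tag. In ARR22-ox 3 rose with t-zeatin and 0 fell in the limma test, and these counts were the same at an unadjusted p under 0.05. In Col-0 0 rose and 1 fell, at both thresholds. At the adjusted threshold, 25.2% of all tested probe sets rose and 25.1% fell in ARR22-ox, and 23.7% rose and 21.1% fell in Col-0. The largest change among them was that of AT1G77890, at 56.1 ± 7.75 in ARR22-ox with t-zeatin and 23.6 ± 7.24 untreated (log2 change 1.28 ± 0.25, adjusted p = 9.61e-04). That untreated mean is dim, under the signal of 24.3 at which the filter was set. AT3G43230 rose by 0.40 ± 0.08 in ARR22-ox (adjusted p = 0.00124) and fell by 0.31 ± 0.08 in Col-0 (adjusted p = 0.00741). The difference of the responses was called higher in 3 of the 5 and lower in 0, against 21.1% and 24.5% of all tested probe sets. With ARR22-ox untreated replicate 3 left out, the response counts in both genotypes had the same values. Of all tested probe sets 30.4% then rose in ARR22-ox and 29.0% fell in Col-0.

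Vacuolar proteases, which break down what autophagy delivers, were tested for 7 of 12 listed genes. With t-zeatin 6 fell in ARR22-ox and 3 fell in Col-0, and 0 rose in either. The shares of all tested probe sets that fell were 25.1% in ARR22-ox and 21.1% in Col-0. At an unadjusted p under 0.05, 6 fell in ARR22-ox and 4 in Col-0, and 0 rose. BETA-VPE, a vacuolar processing enzyme, averaged 39.5 ± 8.09 in ARR22-ox with t-zeatin and 153 ± 13.7 untreated (log2 change -1.97 ± 0.16, adjusted p = 1.12e-06). In Col-0 it averaged 41.9 ± 6.81 with t-zeatin and 49.8 ± 1.98 untreated, which was not called (adjusted p = 0.203). GAMMA-VPE, another vacuolar processing enzyme, fell by 0.67 ± 0.06 in ARR22-ox (adjusted p = 2.63e-06) and by 1.11 ± 0.06 in Col-0 (adjusted p = 8.14e-08). AT4G16190 fell in both as well, by 1.48 ± 0.07 in ARR22-ox and by 0.99 ± 0.07 in Col-0, and so did AT1G02305, by 0.99 ± 0.09 in ARR22-ox and by 0.54 ± 0.09 in Col-0. The difference of the responses was called in 5 of the 7, 1 higher and 4 lower, and among the autophagy members it was 6 higher and 1 lower. Of all tested probe sets 21.1% were called higher and 24.5% lower. Without hormone 6 of the 7 were higher in ARR22-ox, among them BETA-VPE by 1.61 ± 0.16, AT4G01610 by 0.90 ± 0.16, AT1G02305 by 0.80 ± 0.09 and the aspartic protease APA1 by 0.70 ± 0.08, and 0 were lower at either threshold. With t-zeatin 4 were higher. The shares of all tested probe sets that were higher in ARR22-ox were 24.5% without hormone and 23.1% with it. When ARR22-ox untreated replicate 3 was left out, 6 of the proteases fell and 1 rose in the ARR22-ox response, 4 fell in Col-0, and 6 were higher in ARR22-ox with t-zeatin. In that fit 30.7% of all tested probe sets fell and 30.4% rose in ARR22-ox, and 29.0% fell in Col-0. The share higher in ARR22-ox with t-zeatin was 29.3%.

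A single senescence marker of 12 listed was tested. SAG101, an acyl hydrolase linked to leaf senescence, averaged 47.9 ± 9.32 in ARR22-ox with t-zeatin and 28.6 ± 5.20 untreated, and 21.8 ± 3.33 in Col-0 with t-zeatin and 47.0 ± 4.73 untreated. It rose in ARR22-ox (log2 change 0.74 ± 0.18, adjusted p = 0.00509) and fell in Col-0 (-1.12 ± 0.18, adjusted p = 3.53e-04). Its mean in Col-0 with t-zeatin is dim, under the signal of 24.3 at which the filter was set. Calls in opposite directions were made for 11.3% of all tested probe sets. The 1 tested type-A response regulator of 10 listed was ARR16, from a class of genes that cytokinin induces. It had 8.55 ± 1.42 in ARR22-ox with t-zeatin and 17.7 ± 6.27 untreated, and 244 ± 17.0 in Col-0 with t-zeatin and 27.1 ± 3.74 untreated.

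**Figure D5:**
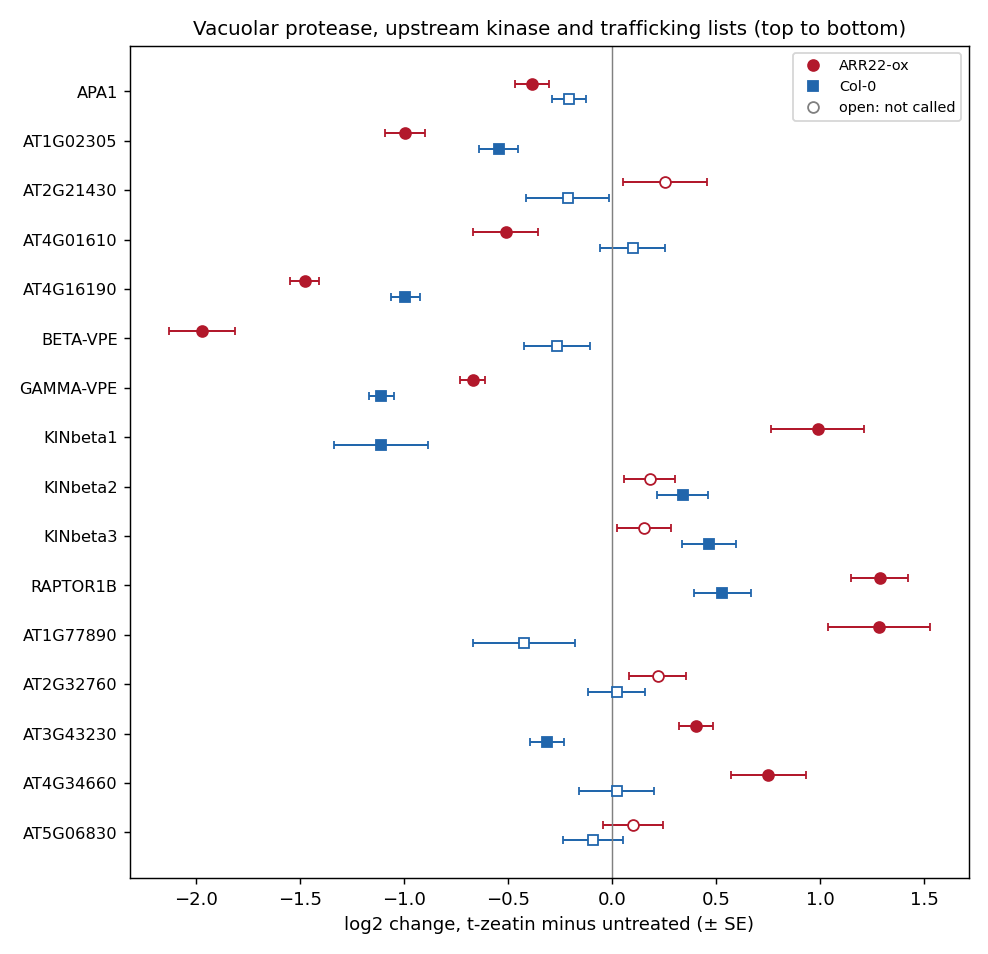
Log2 change with t-zeatin ± SE of the tested kinase subunits, trafficking factors and vacuolar proteases in ARR22-ox and in Col-0; filled points are called at an adjusted p under 0.05. KINbeta1 lies at 0.99 in ARR22-ox and -1.11 in Col-0, and 6 of the 7 proteases are called below 0 in ARR22-ox.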

How the data were processed

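RNA of complete plants was hybridised to 12 single-colour arrays, 3 in each of 4 groups. The authors deposited linear intensity values, 1 for each probe set, made with MAS5 per the submitters' processing notes, which give no version. The trimmed mean of the deposited intensity, with 2% cut at each end, was 100 on every array. For arrays, their number limits the precision. No pair of arrays was identical.

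Of 22810 probe sets 64 were controls and were left out. The table of platform annotation gives a single gene for 13513 probe sets, several genes for 503, and none for 8794, controls included. Of the first, 13436 matched the RefSeq gene table, and names come from it. Where a gene had several probe sets, the brightest stood for it.

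Signals were converted to log2 and kept where the mean over 12 arrays reached the 40th percentile, a signal of 24.3, which left 13648 probe sets. limma 3.58.1 in R 4.3.3 fitted 4 group means to all arrays, with a variance trend, two-sided tests of 5 comparisons and Benjamini-Hochberg adjustment over all kept probe sets. The code was tested on simulated data. Named genes are the members with a probe set, and of each other list up to 4 of the called genes with the largest change in a comparison. The rule came from the list of loci and used no measured value, but the members and lists were chosen with earlier results of these data known. Alternatives were other scalings, filters, an offset of 16, another variance model, only the arrays compared, and each array left out in turn. Counts of the other lists without ARR22-ox untreated replicate 3 were chosen after seeing the data. Detection calls, probe positions and sequences were not used here.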

Additional observations from a re-analysis of the deposited data

Results flagged for a closer look

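The t-zeatin responses of 7 of the 16 tested members differed between ARR22-ox and Col-0 in the limma test of the difference itself. Of all tested probe sets 45.6% were called in the same test. Values are given as the log2 response in ARR22-ox minus that in Col-0. The difference was 2.13 for ATG8E, 0.98 for AT3G53930, 0.75 for ATG8H, 0.60 for ATG101, 0.53 for ATG8F and 0.45 for AT5G50230. It was -0.53 for ATG8D. Of these, AT5G50230 was called in 6 of 19 other settings. Groups of 3 arrays are too small for a test of single outlying arrays.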

How the results depend on the processing

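No called value changed direction under any alternative, but many of the values could not. The log2 change of a member stays the same under other filters, another variance model and only the arrays compared. It also stays the same without an array outside the groups compared. In those settings only the adjusted p can move. Of 1510 values of single members under other settings, 1390 kept their direction and side of the threshold, 67 lost their call, 29 gained one, and 24 were uncalled values that changed sign. In the Col-0 response, 0 members were called higher, against 1, with quantile normalization, with arrays set to the same median and with an offset of 16, and 0 to 1 when arrays were left out, since ATG8B had an adjusted p of up to 0.12. In the ARR22-ox response, 1 member was called higher, against 2, with the stricter filter at the 60th percentile, where AT3G53930 was no longer tested, and 2 to 3 when arrays were left out. The difference of the responses was called lower in 2 members, against 1, with the stricter filter, and in 1 to 2 when arrays were left out. Its median over the members was 0.20, and lay between 0.0764 and 0.299 when arrays were left out, with the lowest without ARR22-ox untreated replicate 2 and the highest without replicate 3 of that group, and was 0.109 with the stricter filter. In untreated plants 1 to 2 members were called lower in ARR22-ox when arrays were left out. With only the arrays compared, 12 members were called higher in ARR22-ox with t-zeatin, against 8. That fit used only the arrays with t-zeatin, and its share over all tested probe sets is not given here. The median of the untreated genotype difference, 0.18, lay between 0.112 and 0.271 when arrays were left out. Other counts and medians of members stayed within 1.5 times their value. No paired analysis was possible because the labels give the groups no shared replicate numbers. The number of arrays, 3 a group, limits the precision, and 23 listed loci had no probe set paired with them alone in the annotation.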
